A study of Homo sapiens with 11 samples.

Results

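The mitotic spindle, kinetochore and anaphase genes, 60 in number, were followed in ARP1 myeloma cells in which PHF19, an accessory subunit of Polycomb repressive complex 2, was raised or lowered. The 60 genes were taken by symbol from a list of spindle, kinetochore and anaphase genes, and the rule uses no measured value. The list itself was chosen with earlier results of these data known. They are 60 of 15148 genes listed in either of the 2 deposited abundance tables. All 60 are in the knockdown table and 58 are in the overexpression table, where CDC25C and BUB1B are not listed.

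ARP1 is an established human multiple myeloma line that secretes IgA kappa. The series holds 11 RNA-seq libraries in 4 groups: ARP1 infected with lentivirus carrying the PCDH plasmid with no insert (empty vector, n = 3), ARP1 infected with the PCDH plasmid holding the PHF19 open reading frame (PHF19 OE, n = 2), ARP1 with a scramble control (n = 3) and ARP1 with shRNA-PHF19 (n = 3). HEK293T cells produced the virus. RNA of the PHF19 OE group came from sorted cells, whereas no sort is stated for empty vector cells. The sources used here give neither the delivery of the scramble and shRNA constructs nor the hairpin used. Because the genotype label names PHF19 overexpression for scramble and shRNA samples too, groups follow the sample titles. All groups come from the same line, and separate cultures are not stated, so p-values measure only the spread between these libraries, which may be technical.

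At mitotic entry the kinase CDK1, bound to cyclin A or B and switched on by CDC25 phosphatases, starts chromosome condensation and spindle assembly. Kinetochores then attach chromosomes to microtubules while the spindle checkpoint holds back the anaphase-promoting complex, a ubiquitin ligase. Once its activator CDC20 is released, cyclin B and securin are destroyed and the chromatids part. Most of these genes are transcribed late in the cell cycle, so in bulk RNA a smaller fraction of cells in G2 and mitosis and less RNA per cell cannot be told apart. For the description the 60 genes were grouped into 9 classes by role: 8 mitotic kinases, 8 cyclins, CDC25 phosphatases and CKS subunits, 5 genes of the spindle checkpoint and chromosomal passenger complex, 10 of the kinetochore and centromere, 8 kinesins, 7 spindle-associated and cytokinesis genes, 6 of condensin with topoisomerase II, 6 regulators or targets of the anaphase-promoting complex, and the pair MKI67 and FOXM1.

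PHF19 itself was 113, 152 and 123 in scramble replicates 1 to 3 and 75.2, 103 and 108 in shRNA replicates 1 to 3, in abundance units of FPKM type. That difference did not pass limma's test (log2 fold change -0.44, SE 0.17, adjusted p = 0.147), although the groups did not overlap. In the overexpression table PHF19 was 111, 119 and 115 in empty vector replicates 3 to 5 and 227 and 213 in PHF19 OE replicates 1 and 2, and it rose by 0.93 on the log2 scale (SE 0.094, adjusted p = 0.0438). All 9 plasma cell markers were at 1 or more in every knockdown library, and 7 of 9 in every overexpression library, where TNFRSF17 and MZB1 are listed at 0 in some. Of the markers of other cell types listed in the knockdown table, MS4A1 (B cell), CD3E (T cell), CD14 and CSF1R (myeloid) were under 1 in every library, while PAX5 (B cell) was 1.64 to 2.66 and LYZ (myeloid) 0.56 to 1.71. KRT18 (epithelial) fell there from 11.1 ± 1.84 in scramble to 5.08 ± 0.382 in shRNA libraries (adjusted p = 0.0137), beside KRT8 at 1.2 ± 0.608 and 1.3 ± 0.541. HBA1 (erythroid) fell from 5.05 ± 0.576 to 0.747 ± 1.29 (adjusted p = 0.0292), beside HBB at 0.44 ± 0.266 and 1.73 ± 1.45. In the overexpression table HBB was 0.442 ± 0.394 in empty vector and 7.98 ± 6.91 in PHF19 OE libraries, LYZ 0.038 ± 0.0329 and 3.28 ± 4.08, KRT18 6.13 ± 1.44 and 4.63 ± 1.60, and PAX5 1.85 ± 0.268 and 1.65 ± 0.0786. JCHAIN, the joining chain of IgA and a plasma cell marker, was 1775 ± 142 and 6230 ± 5101 there. The part of these markers in the mitotic values was not tested. Read depth is unknown. In the knockdown table shRNA replicate 1 stood apart for the mitotic genes: their abundances summed to 2928 there, against 4264 and 4098 in shRNA replicates 2 and 3 and 3856, 4441 and 4172 in scramble replicates 1 to 3.

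Many of the mitotic genes share promoter letters that the list did not use. RefSeq promoters (GRCh38.p14, 250 bases before to 50 after the start) were matched for 51 of the 60 genes, with 67 promoters between them. TTTGAA, the core of the cell cycle genes homology region through which the MuvB complexes act on late cell cycle genes, was found on either strand (TTTGAA or TTCAAA) in at least 1 promoter of 38 of the 51 genes (74.5%). It was in 62.7% of the 67 promoters, against 15.2% of all 35116 promoters. CCAAT, the letters bound by NF-Y, was found on either strand (CCAAT or ATTGG) in 42 of the 51 genes (82.4%), and in 71.6% of their promoters against 34.6% of all. Both were present in 49.3% of the 67 promoters and in 5.9% of all. A match is a description of letters and not of a bound site, and no match says only that these letters are not in this window.

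The promoters of 6 genes are printed because their genes carry the values described next: the cyclin B pair and CDC25A, which differed most among themselves in the knockdown table, CDC20, and CKS1B and MKI67, which lay at opposite ends in the overexpression table. Each line holds the 130 bases before the annotated start, 5′ to 3′ on the gene's strand, with TTTGAA and CCAAT in either orientation in capitals. The regions are chr5:69167020-69167149 (plus strand), chr15:59105016-59105145 (plus), chr1:43358851-43358980 (plus), chr3:48188418-48188547 (minus), chr1:154974551-154974680 (plus) and chr10:128126424-128126553 (minus). CCNB2 held TTTGAA 29 bases before its start and CKS1B 30 bases before, CDC20 held it 65 bases before, MKI67 held it 47 and 29 bases before, and CCNB1 and CDC25A held none in these stretches. An ATTGG of MKI67 overlaps a TTTGAA.

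CCNB1: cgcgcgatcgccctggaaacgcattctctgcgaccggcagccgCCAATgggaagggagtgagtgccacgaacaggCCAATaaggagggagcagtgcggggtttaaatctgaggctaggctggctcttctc
CCNB2: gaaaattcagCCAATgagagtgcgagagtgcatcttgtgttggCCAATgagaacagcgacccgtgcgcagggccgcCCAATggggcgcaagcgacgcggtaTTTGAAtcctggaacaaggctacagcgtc
CDC20: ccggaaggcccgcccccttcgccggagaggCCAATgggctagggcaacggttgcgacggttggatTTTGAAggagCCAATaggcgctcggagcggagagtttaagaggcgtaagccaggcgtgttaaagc
CDC25A: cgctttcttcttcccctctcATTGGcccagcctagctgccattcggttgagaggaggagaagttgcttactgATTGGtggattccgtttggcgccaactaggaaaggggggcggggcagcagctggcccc
CKS1B: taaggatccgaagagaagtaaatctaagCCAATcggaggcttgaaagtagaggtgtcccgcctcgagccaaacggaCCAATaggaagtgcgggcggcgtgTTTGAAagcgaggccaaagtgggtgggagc
MKI67: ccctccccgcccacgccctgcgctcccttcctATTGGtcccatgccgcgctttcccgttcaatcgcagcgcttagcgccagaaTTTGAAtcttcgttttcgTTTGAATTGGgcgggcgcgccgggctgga

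In both control groups UBE2S and CKS1B were the most abundant mitotic transcripts. In scramble libraries UBE2S, the ubiquitin-conjugating enzyme that extends chains on targets of the anaphase-promoting complex, stood at 480 ± 67.1 (SD, n = 3), ahead of CKS1B, a small CDK-binding subunit, at 407 ± 52.8, though not beyond their spread. PLK1, the polo-like kinase that drives centrosome maturation and mitotic entry, followed at 204 ± 27.3, close to the E2 enzyme UBE2C at 201 ± 20.3, from which it did not differ beyond the spread. The lowest were CENPE, the kinetochore motor, at 6.72 ± 2.30, CDC25C at 7.48 ± 0.93 and the cytokinesis kinesin KIF14 at 9.99 ± 3.01, again within each other's spread. In empty vector libraries CKS1B led at 342 ± 14.8 (n = 3), with UBE2S at 246 ± 23.4 and UBE2C at 149 ± 14.8. CKS2 was above UBE2C in both empty vector libraries in which it is not listed at 0. The lowest genes there with no library at 0 were KIF18A at 10.9 ± 1.05 and KIF14 at 12.5 ± 0.75. These values are per transcript length, and levels are not compared between the tables, which were normalised separately.

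In the knockdown comparison, which asks what differs between cells with shRNA against PHF19 and scramble cells, none of the 60 mitotic genes passed the test. All 60 were tested, and 0 had a limma adjusted p under 0.05 (also 0 without trend and robust variances), where 5.51% of the 10900 genes tested did, 4.24% higher and 1.28% lower. At an unadjusted p under 0.05 there were 2 of 60 (CDC25A and SPC24), against 24.1% of all genes. Most members nevertheless had fold changes below 0: 49 of 60, with a median log2 fold change of -0.13 and a range of -0.65 to 0.21, beside a median of 0.03 over all genes tested. The scramble and shRNA libraries did not overlap for 6 members with lower values (CDC20, CDC25A, CCNB1, AURKB, CDCA8 and TPX2) and 1 with higher values (CCNB2), where 13.0% and 18.9% of all genes did so in these directions.

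The values below 0 sat mainly in 1 library. shRNA replicate 1 was the lowest of the 6 libraries for 48 of the 60 genes, whereas it was the lowest for 30.7% of all genes with no value of 0. Scramble replicate 1 was the lowest for 8 and, within its own group, for 41 of the 60, against 49.4% of all genes. Without shRNA replicate 1 the median of the 60 genes was 0.025 and 24 were below 0. Of the 49 genes below 0 with all libraries, 25 were then above 0, 23 were below 0 but closer to it by over 1.5 times, and the remaining gene, CKS2, moved less. The values were -0.06 for PLK1, -0.07 for CDC20, -0.12 for NCAPH, -0.11 for KIF20A and -0.24 for SPC24. Without both libraries numbered 1, an alternative chosen after seeing the data, the median was -0.04. The libraries also differed in a way that followed base composition: across the 60 genes the deviation of scramble replicate 1 from its group mean correlated with transcript GC content at a Spearman rho of 0.62, and that of shRNA replicate 2 at -0.66, against 0.21 and -0.35 over 10554 genes, values that share each library. The part of GC content and of these libraries in single fold changes was not tested beyond the alternatives given here.

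**Figure D1:**
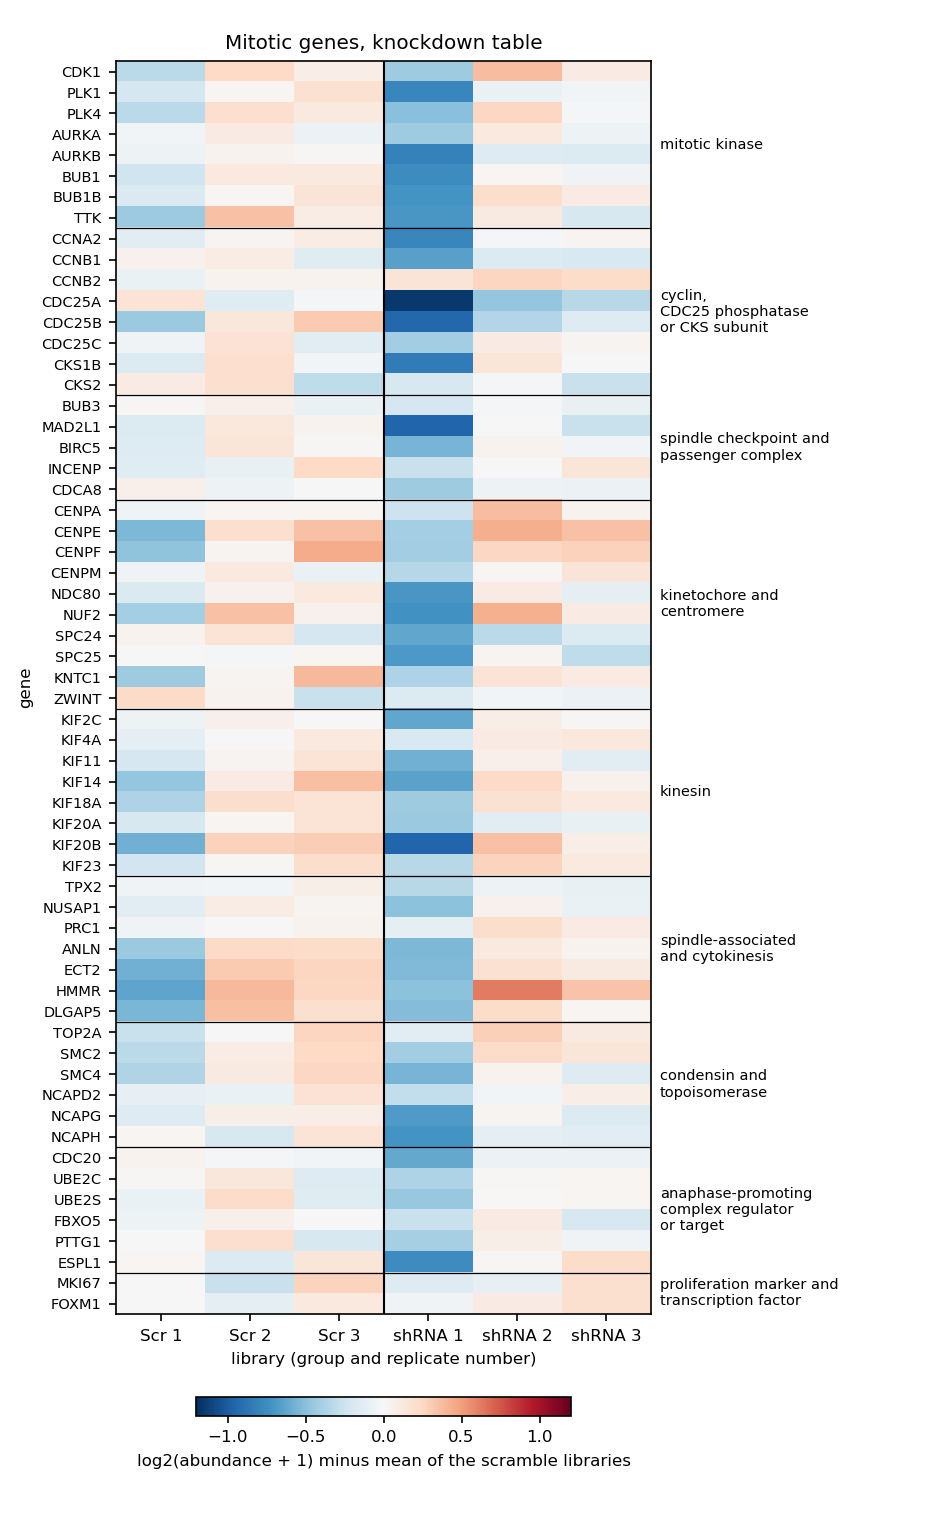
Each cell gives log2(abundance + 1) of 1 mitotic gene (vertical axis, ordered by class) in 1 knockdown library (horizontal axis) minus the mean of the 3 scramble libraries, with blue below and red above. The column of shRNA replicate 1 is blue for nearly every gene, the lowest of the 6 libraries for 48 of 60, while shRNA replicates 2 and 3 are pale or red outside CDC25A, CDC25B and a few others.

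The class medians and counts below are those of the fit with all libraries, so they include shRNA replicate 1. The class with the lowest median was that of cyclins, CDC25 phosphatases and CKS subunits (-0.24, 7 of 8 below 0). CDC25A, the phosphatase that also acts at the start of S phase, was 21.2, 16.9 and 18.5 in scramble replicates 1 to 3 and 7.84, 13.3 and 14.7 in shRNA replicates 1 to 3. Every shRNA library lay below every scramble library, and replicate 1 lay lowest, and the log2 fold change was -0.65 (SE 0.21, adjusted p = 0.0949), or -0.40 without that library (adjusted p = 0.125). CDC25B, which activates CDK1 at the centrosome, was 44.8, 67.8 and 76.6 in scramble and 31.6, 48.2 and 55.0 in shRNA libraries, so the groups overlapped. Within each replicate number, however, the shRNA library was lower by nearly the same amount, -0.49, -0.49 and -0.47 on the log2 scale. The unpaired fit gave -0.48 (SE 0.24, adjusted p = 0.247), or -0.25 without shRNA replicate 1 (adjusted p = 0.509). With the replicate number as a block CDC25B fell (adjusted p = 0.0196). In that fit 11.9% of all genes passed in either direction, and CDC25B was the only mitotic gene to do so. It also passed without both libraries numbered 1 (-0.48, adjusted p = 0.0269), where 7.91% of all genes passed. CDC25C, the remaining phosphatase, was 7.23, 8.51 and 6.70 against 5.32, 8.06 and 7.62, with overlapping groups (-0.10 on the log2 scale, adjusted p = 0.772).

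The B-type cyclins, the partners of CDK1 in mitosis, lay on opposite sides of 0. CCNB1 was 151, 154 and 131 under scramble and 91.8, 129 and 128 under shRNA (log2 fold change -0.33, SE 0.16, adjusted p = 0.224), or -0.17 without shRNA replicate 1. CCNB2 was 55.5, 60.6 and 60.5 in scramble and 65.6, 70.8 and 68.8 in shRNA libraries (0.21, SE 0.11, adjusted p = 0.269). Neither difference passed, but in neither gene did the groups overlap. The ratio of CCNB2 to CCNB1, chosen after the values were seen, was 0.369, 0.395 and 0.461 in scramble and 0.715, 0.547 and 0.539 in shRNA libraries. In the overexpression table this ratio varied between control libraries, at 0.481, 0.375 and 0.733 in empty vector and 0.483 and 0.497 in PHF19 OE libraries. CCNB2, HMMR and CENPE were the only members with a higher shRNA library within all 3 replicate numbers, and CCNB2 was the only one of them whose groups did not overlap. Cyclin A2 (CCNA2) was 88.6 ± 6.76 under scramble and 76.4 ± 22.0 under shRNA (adjusted p = 0.475), and CKS1B was 407 ± 52.8 and 361 ± 118 (adjusted p = 0.596).

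**Figure D2:**
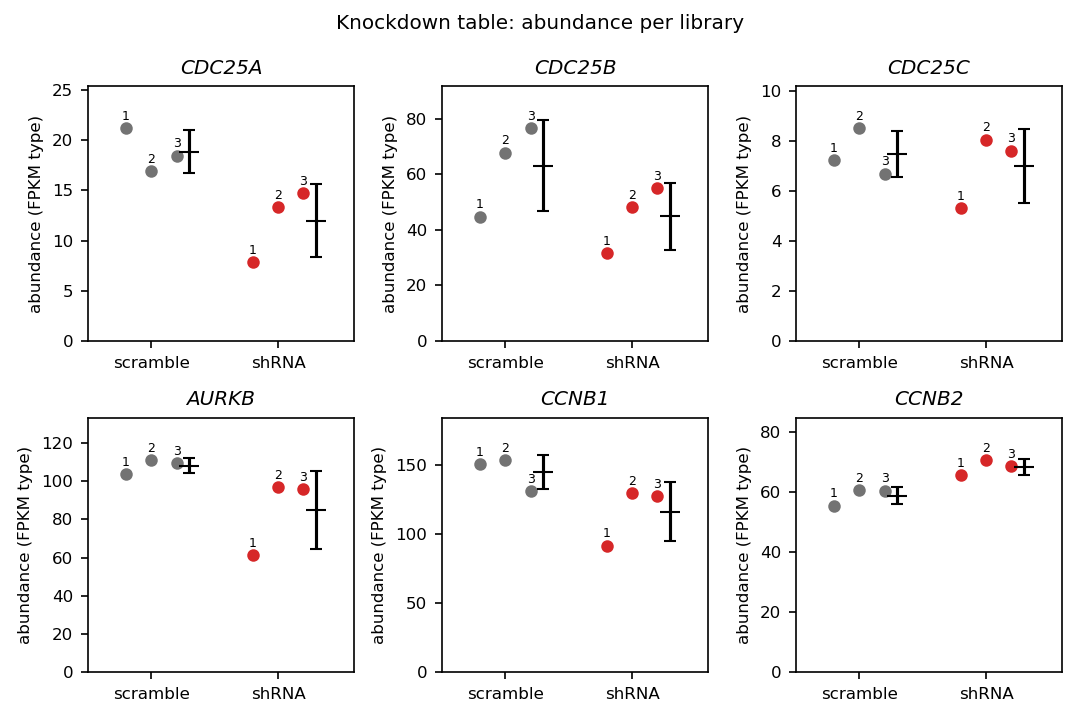
Abundance (FPKM type, axes from 0) of 6 genes per knockdown library, grey for scramble and red for shRNA, with the replicate number above each point and the mean ± SD beside each group. CDC25A, AURKB and CCNB1 have all shRNA points below all scramble points, CCNB2 has them above, and in CDC25B the points keep the order 1, 2, 3 in both groups at a lower level in shRNA.

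Among the 8 mitotic kinases 7 had fold changes below 0 (median -0.20). AURKB, the catalytic subunit of the chromosomal passenger complex, was 103.6, 111 and 109 in scramble and 61.2, 97.0 and 95.96 in shRNA libraries, without overlap. Its log2 fold change was -0.38 (SE 0.17, adjusted p = 0.220) and -0.16 without shRNA replicate 1. PLK1 was 204 ± 27.3 and 169 ± 44.5 (adjusted p = 0.395), BUB1 50.9 ± 7.08 and 43.3 ± 12.0 (adjusted p = 0.471), and TTK, the checkpoint kinase MPS1, 13.8 ± 3.88 and 11.3 ± 3.34 (adjusted p = 0.548). CDK1, the engine of mitotic entry, was 51.6 ± 10.1 and 52.7 ± 14.3, a log2 fold change of 0.01.

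All 5 genes of the checkpoint and passenger class were below 0 (median -0.18). MAD2L1, which forms the diffusible checkpoint inhibitor with BUBR1 and CDC20, was 76.1, 93.5 and 88.2 in scramble and 43.7, 85.3 and 70.9 in shRNA libraries, so that shRNA replicate 2 lay inside the scramble range (-0.41, SE 0.22, adjusted p = 0.280). The value was -0.14 without shRNA replicate 1 and -0.61 without shRNA replicate 2. CDCA8, the passenger subunit borealin, was 52.2 ± 2.25 and 46.1 ± 6.5 (-0.18, adjusted p = 0.426), with no overlap between groups. INCENP, the scaffold of the same complex, was 50.3 ± 7.59 and 48.7 ± 7.04 (-0.04, or 0.07 without shRNA replicate 1).

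With all libraries, the kinetochore and centromere genes lay closest to 0 among the larger classes, with a median of -0.06 and 3 of 10 above 0. Without shRNA replicate 1, CENPE (0.39), CENPF (0.27), NUF2 (0.26), CENPA (0.21), KNTC1 (0.13) and CENPM (0.09) were above 0. SPC24 (-0.24), SPC25 (-0.14), ZWINT (-0.05) and NDC80 (-0.01) were then below, so the place of this class depended on that library. SPC24, a subunit of the NDC80 complex that grips microtubule ends, was 21.4, 23.4 and 17.9 in scramble and 13.2, 16.4 and 18.5 in shRNA libraries (-0.37, SE 0.16, adjusted p = 0.187). Its partner SPC25 was 21.6 ± 0.315 and 17.5 ± 4.55 (-0.32, adjusted p = 0.289), while the other arm of the complex, NUF2, was 30.5 ± 8.02 and 30.0 ± 11.6 (-0.07). CENPE, CENPF and CENPA had log2 fold changes of 0.13, 0.04 and 0.06.

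The 8 kinesins had a median of -0.15 with 6 below 0, and none had groups without overlap. Without shRNA replicate 1, KIF2C (0.05), KIF4A (0.11), KIF14 (0.14), KIF18A (0.15), KIF20B (0.21) and KIF23 (0.19) were above 0. KIF11 (-0.03) and KIF20A (-0.11) were then below, so the side of 0 on which this class lay depended on that library. KIF20A, the central spindle kinesin needed for cytokinesis, was 32.5, 37.9 and 41.8 in scramble and 27.1, 33.7 and 34.9 in shRNA libraries (-0.22, SE 0.14, adjusted p = 0.374), and it was lower within all 3 replicate numbers. The spindle-associated class had a median of -0.09. TPX2, which activates Aurora A on the spindle, was 76.0 ± 3.16 and 67.9 ± 6.90 (-0.16, adjusted p = 0.440, no overlap), and NUSAP1, a microtubule bundler, 85.7 ± 6.65 and 76.8 ± 14.6 (-0.17, adjusted p = 0.535). HMMR, the hyaluronan receptor that binds spindle microtubules, varied more between libraries than between groups, at 22.8, 47.1 and 42.7 in scramble and 25.2, 55.8 and 45.8 in shRNA libraries.

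In the condensin class NCAPH, the kleisin that closes the condensin I ring, was 15.0, 12.8 and 16.7 in scramble and 8.57, 13.6 and 13.4 in shRNA libraries (-0.32, SE 0.19, adjusted p = 0.322). The class median was -0.15, with 5 of 6 below 0, and TOP2A, the topoisomerase that untangles sister chromatids, was the exception at 84.1 ± 15.3 and 89.0 ± 12.9. All 6 regulators or targets of the anaphase-promoting complex were below 0 (median -0.13, range -0.25 to -0.11). Without shRNA replicate 1, UBE2C (0.02), UBE2S (0.01), PTTG1 (0.01) and ESPL1 (0.12) were above 0, and CDC20 (-0.07) and FBXO5 (-0.05) were below. CDC20, its mitotic activator, was 171, 165 and 163 in scramble and 108, 158 and 158 in shRNA libraries, without overlap (-0.25, SE 0.16, adjusted p = 0.361). PTTG1, the securin that it destroys, was 120 ± 16.5 and 111 ± 18.2. MKI67, the antigen Ki-67 that coats mitotic chromosomes, was 33.3 ± 6.28 and 32.6 ± 4.45 (-0.02), and FOXM1, the transcription factor of late cell cycle genes, 94.7 ± 7.32 and 100.4 ± 8.40 (0.08, adjusted p = 0.718).

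Set against replicate numbers, the median difference of the 60 genes was -0.31 for number 1, -0.02 for number 2 and -0.08 for number 3, with 52, 31 and 39 genes below 0. The corresponding medians over all genes were 0.05, 0.05 and -0.00063. Of the 60, 20 were below 0 within every number, 25 within 2 of them, 12 within 1 and 3 within none. The authors' deposited table gives a p under 0.05 for 46 of the 60 genes (39 lower, 7 higher in shRNA), among 61.2% of all 14458 genes of that table. Its 4 smallest values for these genes are 1.35e-61 for CDC25B, 6.55e-53 for PLK1, 1.93e-49 for CCNB1 and 6.42e-41 for CDC25A (the sources used here do not name the test).

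Genes of DNA replication, listed for comparison, lay further below 0 than the mitotic genes in the same libraries. Of 30 S phase genes 29 were below 0, the median was -0.36, and 17 had groups without overlap and lower shRNA values (13.0% of all genes). CDC6, which loads the replicative helicase at origins, fell from 39.4, 38.3 and 39.8 in scramble to 19.4, 27.8 and 27.4 in shRNA libraries (-0.65, SE 0.15, limma adjusted p = 0.0354) and was the only one of the 30 past the threshold. Within replicate numbers 1, 2 and 3 the S phase medians were -0.80, -0.07 and -0.14, so number 1 stood apart there as well. Without shRNA replicate 1 the median was -0.14 with 2 calls, and there were 0 calls without any single scramble library, without shRNA replicate 3, and under limma without trend and robust variances. The difference between the lists was not tested.

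A wider list of 109 other mitotic genes (subunits of the anaphase-promoting complex, further centromere, spindle, cohesin and mitotic entry genes) had a median of -0.10, with 74 below 0. Of these, 2 passed, both higher. ANAPC16, a small subunit of the anaphase-promoting complex, rose from 11.9, 14.6 and 13.2 in scramble to 19.8, 21.7 and 20.6 in shRNA libraries (0.61, SE 0.13, adjusted p = 0.0283). HAUS4, a subunit of augmin, which nucleates microtubules within the spindle, rose from 22.4, 18.1 and 19.6 to 33.0, 33.2 and 31.0 (0.67, SE 0.12, adjusted p = 0.0189). In both genes the 3 shRNA libraries lay close together and above all scramble libraries, and shRNA replicate 1 did not stand apart. Leaving out shRNA replicate 1 left 2 calls, and leaving out any other single library left 0.

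In the overexpression comparison, which asks how transcripts differ when PHF19 is raised, again none of the mitotic genes passed the test. Of the 58 listed, 58 were tested and 0 had a limma adjusted p under 0.05 (also 0 without trend and robust variances), against 0.914% of the 10279 genes tested, and 9 had an unadjusted p under 0.05, against 11.5%. With genes listed at 0 left out, limma called 0.0% of 8665 genes. Of the 54 mitotic genes with no 0, 26 had fold changes above 0 and 28 below, with a median of -0.03 and a range of -0.98 to 0.49, beside a median of 0.09 over all genes tested. Quantile normalisation moved the all-gene median from 0.09 to -0.05 and that of the mitotic genes tested from -0.01 to -0.14. Groups did not overlap for 10 members with higher and 12 with lower values in PHF19 OE, where 23.1% and 11.1% of all genes did so.

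**Figure D3:**
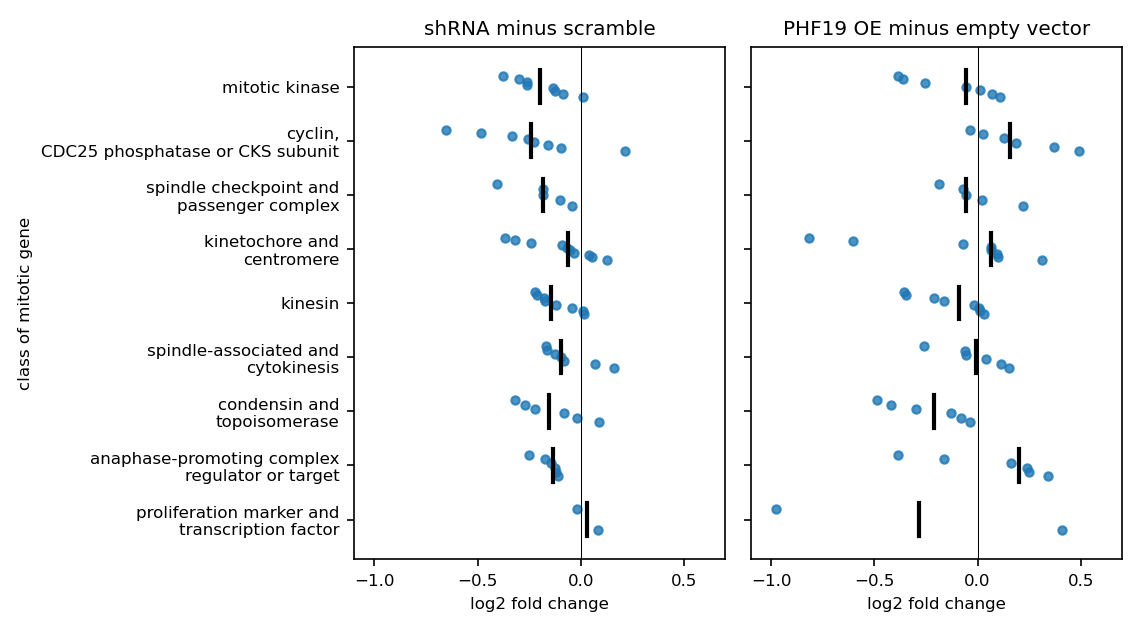
Log2 fold change of each mitotic gene (point, jittered vertically) by class, in the knockdown table (left) and the overexpression table (right, genes with no library at 0), with a bar at the class median and a line at 0. On the left, with shRNA replicate 1 included, 8 of the 9 class medians lie below 0. On the right the kinetochore class and the MKI67 and FOXM1 pair are spread widest.

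The lowest values in PHF19 OE were those of 2 large chromosome-bound proteins. MKI67 was 36.7, 33.3 and 38.8 in empty vector replicates 3 to 5 and 18.6 and 17.2 in PHF19 OE replicates 1 and 2. The groups lay far apart, at 0.493 times the empty vector mean, and the log2 fold change was -0.98 (SE 0.12, adjusted p = 0.0817). Without empty vector replicate 5 MKI67 passed, at -0.93 (adjusted p = 0.0473), as 3.48% of all genes did, and without PHF19 OE replicate 1 the only mitotic call was CENPA, which is listed at 0 in the remaining library (1.37% of all genes). CENPF, a large kinetochore and centromere protein, was 39.6, 37.1 and 42.8 in empty vector and 24.3 and 20.2 in PHF19 OE libraries, 0.558 times the empty vector mean (-0.82, SE 0.14, adjusted p = 0.189). The authors' deposited table gives p = 1.07e-07 for MKI67 and 7.49e-06 for CENPF, and a p under 0.05 for 6 of the 58 genes (5 lower, 1 higher), against 12.9% of that table. The 1 higher gene is CENPE, which is listed at 0 in empty vector replicate 5. In empty vector replicates 3 and 4 CENPE lay above both PHF19 OE libraries.

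TOP2A and FOXM1, which are also read as marks of cycling cells, had other values. TOP2A was 118 ± 16.1 (SD, n = 3) in empty vector and 108 ± 6.30 (n = 2) in PHF19 OE libraries, so the ratio of MKI67 to TOP2A went from 0.324, 0.316 and 0.284 to 0.166 and 0.166. FOXM1 was 55.8, 64.4 and 63.9 in empty vector and 77.8 and 85.7 in PHF19 OE libraries, with no overlap (0.41, SE 0.12, adjusted p = 0.373). The ratio of MKI67 to FOXM1 was 0.659, 0.518 and 0.607 against 0.240 and 0.200, and that of CENPF to the kinetochore gene NDC80 was 1.49, 1.65 and 1.67 against 0.973 and 0.909. These ratios were chosen after the values were seen and carry no test.

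**Figure D4:**
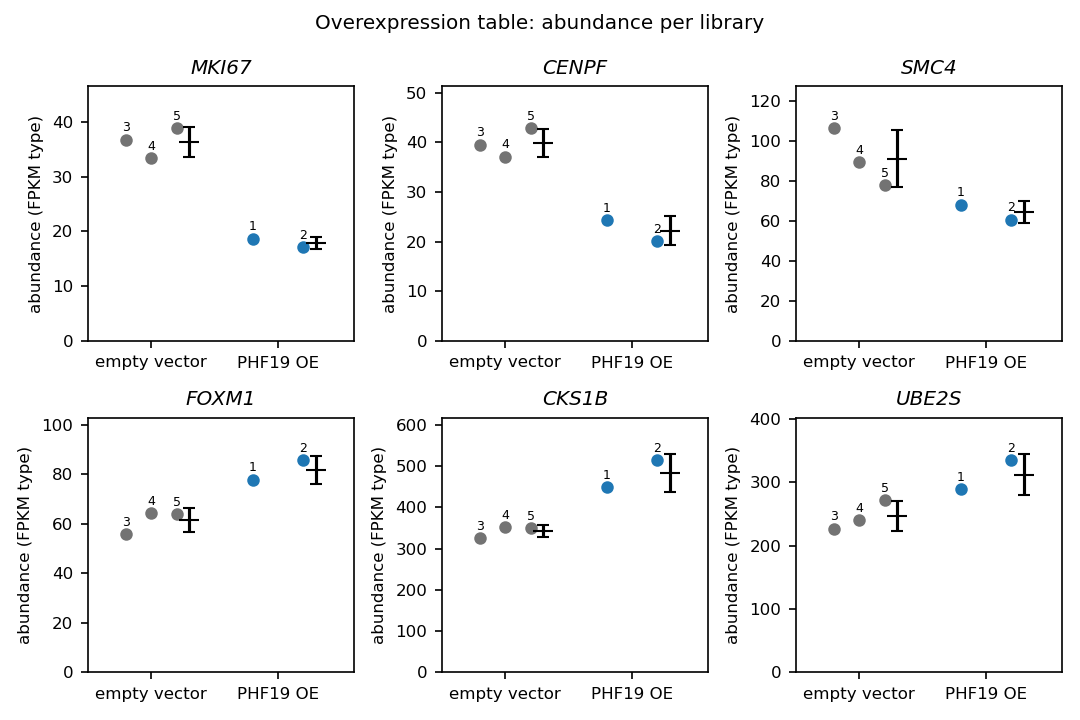
Abundance (FPKM type, axes from 0) of 6 genes per overexpression library, grey for empty vector and blue for PHF19 OE, with the replicate number above each point and the mean ± SD beside each group. MKI67, CENPF and SMC4 have both PHF19 OE points below the empty vector points, and FOXM1, CKS1B and UBE2S have them above.

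The highest fold change among genes with no 0 was that of CKS1B, ahead of FOXM1, CDC25B and UBE2S. CKS1B was 325, 352 and 349 in empty vector and 449.5 and 515 in PHF19 OE libraries (0.49, SE 0.11, adjusted p = 0.295), without overlap. UBE2S was 226.5, 240.5 and 272 against 289 and 335 (0.34, SE 0.13, adjusted p = 0.452), and CDC20 was 103 ± 8.48 against 122 ± 3.30 (0.25, adjusted p = 0.504). Over the 54 mitotic genes with no 0, the fold change in PHF19 OE correlated with the length of the longest coding transcript at a Spearman rho of -0.66 and with its GC content at 0.57. Over 8085 genes the same values were -0.30 and 0.30, so length moved with the fold change across the whole table. Points share the same 5 libraries, and in the knockdown table the 60 genes gave 0.23 for length and -0.24 for GC content.

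By length, the 10 mitotic genes of up to 2000 bases had a median log2 fold change of 0.13 (all genes of that length 0.17), the 27 of 2000 to 4000 bases 0.02 (0.12), the 10 of 4000 to 6000 bases -0.06 (0.04) and the 7 longer ones -0.35 (-0.10). All 7 of the longest were below 0. MKI67 (12678 bases) and CENPF (10307 bases) are the longest of the 54. With the trend of length and GC content removed from each library, an alternative chosen after seeing the data, MKI67 was at -0.77 (adjusted p = 0.122), CENPF at -0.61 (adjusted p = 0.225), CKS1B at 0.34 (adjusted p = 0.543), FOXM1 at 0.25 (adjusted p = 0.596) and UBE2S at 0.15 (adjusted p = 0.740).

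**Figure D5:**
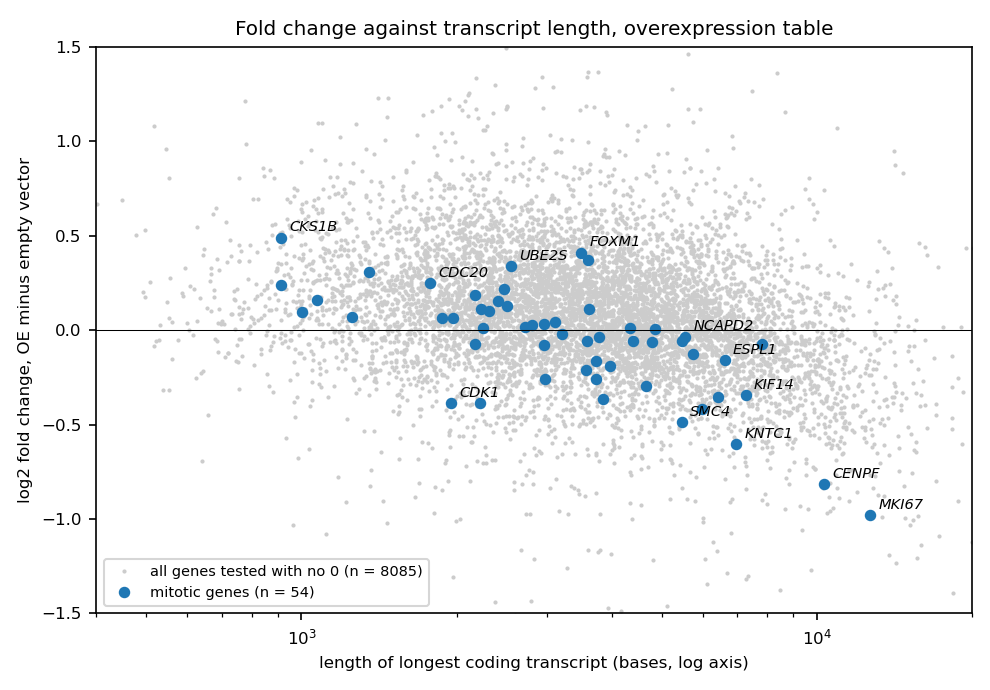
Log2 fold change, PHF19 OE minus empty vector (vertical axis), against the length of the longest coding transcript in bases (horizontal axis, log scale), for 54 mitotic genes (blue) and 8085 genes tested with no 0 (grey). The blue points slope from CKS1B at the upper left to CENPF and MKI67 at the lower right, with a Spearman rho of -0.66 for the mitotic genes and -0.30 for all genes.

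By role, the condensin class had the lowest median among classes of 5 or more, -0.21, with 6 of 6 below 0. SMC4, an ATPase of condensin, was 106, 89.3 and 78.1 in empty vector and 68.2 and 60.6 in PHF19 OE libraries (-0.49, SE 0.17, adjusted p = 0.415), and its partner SMC2 was 20.3 ± 4.67 against 14.7 ± 0.805 (-0.42, adjusted p = 0.534). NCAPD2, a condensin I subunit, was 105 ± 7.96 against 102 ± 2.41 (-0.03). Its transcript has 5548 bases and a GC content of 52.5%, and that of SMC4 has 5471 bases and 37.3%. The part of length and GC content in these values was not tested. The class thus spread from nearly level to clearly separate groups, and every difference missed the threshold.

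The mitotic kinases lay on either side of 0. CDK1 was 82.1, 78.7 and 90.1 in empty vector and 66.7 and 60.9 in PHF19 OE libraries (-0.38, SE 0.11, adjusted p = 0.374), without overlap. Its transcript has 1948 bases and a GC content of 37.0%. With the trend of length and GC content removed it was at -0.43 (limma adjusted p = 0.508). PLK4, the kinase that licenses centriole duplication, was 18.1 ± 1.07 against 13.9 ± 0.749 (-0.36, adjusted p = 0.389), and TTK 13.2 ± 0.667 against 10.9 ± 0.726 (-0.26, adjusted p = 0.504). PLK1 (114 ± 8.13 and 123 ± 1.70), AURKA (40.8 ± 4.0 and 41.0 ± 0.289) and AURKB (70.8 ± 7.87 and 74.0 ± 4.17) had log2 fold changes of 0.11, 0.01 and 0.07. The class median was -0.06.

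Among kinetochore genes KNTC1, the ROD subunit of the complex that brings dynein to kinetochores, was 15.0, 14.8 and 20.0 in empty vector and 11.6 and 9.40 in PHF19 OE libraries (-0.60, SE 0.20, adjusted p = 0.394). The 4 subunits of the NDC80 complex had fold changes closer to 0, NDC80 at -0.07, NUF2 at 0.06, SPC24 at 0.10 and SPC25 at 0.31, the last with an SE of 0.45. Of the kinesins, KIF14 was 12.5 ± 0.75 against 9.59 ± 0.358 (-0.34, adjusted p = 0.410, no overlap) and KIF20B, which acts in abscission, 13.3 ± 3.26 against 10.0 ± 0.523 (-0.35, adjusted p = 0.602), while KIF11, the motor that separates spindle poles, was 37.0 ± 3.91 against 37.2 ± 3.82.

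Among the other classes, FBXO5, the inhibitor of the anaphase-promoting complex known as EMI1, was 29.9 ± 5.64 against 22.4 ± 2.70 (-0.38, adjusted p = 0.547), opposite in sign to CDC20 and UBE2S of the same class. CDCA8 (0.22, adjusted p = 0.560) and INCENP (-0.19, adjusted p = 0.541) of the passenger complex also differed in sign, each without overlap. DLGAP5, a microtubule-stabilising protein of the spindle, was 26.2 ± 4.55 against 21.5 ± 1.24 (-0.26, adjusted p = 0.616). CDC25B was 26.3 ± 4.01 against 34.0 ± 2.01 (0.37, adjusted p = 0.502, no overlap).

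In all, 4 members are listed at 0 in a single overexpression library beside ordinary values in the others, and no fold is given for them. CKS2 is listed at 212, 206 and 0 in empty vector and 212 and 240.1 in PHF19 OE libraries, and PRC1, the antiparallel microtubule crosslinker, at 84.1, 0 and 84.0 against 91.0 and 75.0. CENPE is listed at 11.2, 10.5 and 0 against 9.60 and 8.44, and CENPA, the centromeric histone, at 32.5, 29.6 and 40.1 against 31.2 and 0. CKS2, CENPE and CENPA had no value of 0 in the knockdown table, nor did PRC1.

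Of 93 other mitotic genes tested in this table, 1 passed. It was MIS18A, a centromere licensing factor, which is listed at 0 in all 3 empty vector libraries and at 36.3 and 30.6 in PHF19 OE libraries (adjusted p = 0.00105), and no fold is given. It entered the test through the PHF19 OE group only, and in the knockdown table MIS18A was 35.5, 43.1 and 39.9 in scramble libraries. The replication genes FEN1 and MCM7 are also listed at 0 in all 3 empty vector libraries, so the call compares with listed zeros and is not read as a change. With single libraries left out the list had between 1 call and, without empty vector replicate 5, 4 higher and 2 lower calls. The 27 S phase genes tested had a median of -0.05, with 0 past the threshold and 3 at an unadjusted p under 0.05. Empty vector replicate 5 was the lowest library for many of them. GINS2 was 117, 113 and 46.3 in empty vector replicates 3 to 5 and 73.6 and 78.5 in PHF19 OE libraries. MCM4 was 83.2, 88.5 and 42.5 against 74.5 and 69.1, while CDT1 was 28.8, 31.7 and 39.2 against 38.3 and 40.1. The median and the lack of calls include this spread between control libraries.

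The arms were also set side by side for the 54 genes with no 0 in either table. With separate libraries and controls, 22 of the 54 (40.7%) were below 0 in shRNA and above 0 in PHF19 OE, as were 24.9% of 7926 genes. Below 0 in both were 24 (44.4%, all genes 21.2%), and above 0 in both were 4 (7.41%, all genes 35.3%). Another 4 (7.41%, all genes 18.7%) were above in shRNA and below in PHF19 OE. Most members were below 0 in the knockdown table (49 of 60), which by itself raises both shares below 0 in shRNA. The fold changes of the 54 genes correlated across arms at a Spearman rho of -0.29, against 0.19 over the 7926 genes, which are not independent replicates. Among members with no 0, length correlated with the fold change at 0.23 in the knockdown and -0.66 in the overexpression table. GC content did so at -0.24 and 0.57. The part of length, GC content and shRNA replicate 1 in the rho of -0.29 was not tested. CDC25B (-0.48 and 0.37), CKS1B (-0.23 and 0.49), CDC20 (-0.25 and 0.25) and UBE2S (-0.14 and 0.34) were among the 22, and the values of MKI67 were -0.02 and -0.98 and those of CENPF 0.04 and -0.82. Without shRNA replicate 1 the knockdown values were -0.25 for CDC25B, 0.08 for CKS1B, -0.07 for CDC20 and 0.01 for UBE2S. The signs of CKS1B and UBE2S then no longer differed between arms, so the count of 22 depends on that library. No difference between the arms was tested, since the tables were normalised separately.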

How the data were processed

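RNA-seq of 11 ARP1 libraries was analysed from 2 abundance tables, 1 for empty vector and PHF19 OE and 1 for scramble and shRNA. The submitters' processing notes name TopHat and the build hg19. No version, quantifier or annotation is named in the sources used here. The abundances deposited by the authors are recorded as FPKM. The headers state no unit, FPKM, RPKM and TPM could not be told apart, and depth is unknown. The authors rounded the knockdown values to 2 decimals. Each table also holds a deposited p-value of the authors' own test.

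Each table was fitted alone on log2(abundance + 1), so fold changes of low genes are understated. Genes reaching 1 in 3 libraries (knockdown) or 2 (overexpression) entered a two-sided limma-trend test with robust variances (limma 3.58.1, R 4.3.3). Its p-values were adjusted by Benjamini-Hochberg over the 10900 and 10279 genes, with a threshold of 0.05. The script was tested on simulated data. Values are means ± SD, and SE is limma's. Transcript length and GC content came from the longest coding transcript in GENCODE, available for 97.0% and 92.7% of genes tested. Promoters came from RefSeq. Other tables were made with numpy 2.4.6 and pandas 2.3.3 and plots with matplotlib 3.10.9 in Python 3.11.15.

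The members, classes and comparison lists were chosen with earlier results of these data known. Genes were named by smallest adjusted p and largest fold change in each class and arm, by the 3 highest and 3 lowest levels in each control group, and past the threshold in the other lists. Other genes named were picked after their values were seen, among them CDC25B, CCNB1, CCNB2, SPC25, SMC2, KNTC1 and the genes printed only as means ± SD.

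The numbers 1 to 3 occur in scramble and shRNA. Deviations from the group means correlated at 0.341, 0.270 and 0.273 for libraries with equal numbers and at -0.277 to 0.0936 for the other pairs. The labels state no pairing, so the reported fit has no block and its p-values are unpaired. On the evidence of these correlations, differences within numbers and a fit with the block are given beside it. With the block 11.9% of all genes passed, against 5.51% without. Alternatives were other variance models, scalings, filters and pseudocounts, the block, left-out libraries, removal of the length and GC trend, and genes with no 0.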

Additional observations from a re-analysis of the deposited data

How the results depend on the processing

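With the replicate number as a block, 1 of the 60 mitotic genes passed in the knockdown table (CDC25B), and likewise 1 with the block and median-of-ratios scaling (-0.52, adjusted p = 0.0239), 1 with the block and the length and GC trend removed (-0.61, adjusted p = 0.0206) and 1 without both libraries numbered 1 (-0.48, adjusted p = 0.0269). The block changed no other call among the mitotic genes. Leaving out single libraries gave 0 to 0 calls there, and medians of the mitotic genes from -0.25 (without shPHF19 replicate 2) to 0.025 (without shPHF19 replicate 1). The fold change of FOXM1 was -0.0084 with the length and GC trend removed, with or without the block, and that of HMMR ran from -0.16 without scramble replicate 1, and -0.073 without shPHF19 replicate 2, to 0.49 without shPHF19 replicate 1. In the overexpression table leaving out single libraries gave 0 to 1 calls: MKI67 without empty vector replicate 5, and CENPA, listed at 0 in PHF19 OE replicate 2, without PHF19 OE replicate 1, where the lone library was assumed to vary like the others. The median there ran from -0.051 without empty vector replicate 5 to 0.019 without empty vector replicate 3, and was 0.015 without PHF19 OE replicate 2. The causes were not tested. Otherwise 258 and 237 checks kept direction and side of the threshold, made only for the genes named by the rule and a few others. Further genes named above were not in the knockdown checks. Of these, some changed sign without shPHF19 replicate 1, among them CCNA2 (-0.25 to 0.01), CKS1B (-0.23 to 0.08), NUF2 (-0.07 to 0.26) and PTTG1 (-0.12 to 0.01). No paired analysis was possible for overexpression because the groups share no replicate number. Calls over all genes ranged from 41 to 1295 in the knockdown table and from 0 to 105 in the overexpression table, and with single libraries left out from 54 to 629 and from 107 to 350. Depth is unknown, so counting error is not part of any value.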
